A study of Mus musculus with 6 samples.

Results

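Heat shock proteins and J-domain chaperones were taken from RNA-seq counts of regenerating mouse muscle. They were chosen by name alone, as protein-coding genes whose symbols begin with Hspa, Hspb, Hspd, Hspe, Hsph, Hsp90 or Dnaja, Dnajb or Dnajc. Of 16289 genes in the count table, 67 were members, and all 67 passed the filter on low counts. The annotation lists 74 such symbols, and the other 7 are not analysed here. By family there were 14 Hsp70 and Hsp110 genes (HSPA and HSPH), 3 Hsp90 genes and the pair of mitochondrial chaperonin genes. There were also 7 genes named as small heat shock proteins (HSPB) and 39 J-domain genes (4 DNAJA, 11 DNAJB and 24 DNAJC). A further 2, Hspbp1 and Hspbap1, match the pattern by spelling and belong to none of these families.

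The samples were whole tibialis anterior muscle of wild-type male C57BL/6J mice, 12 weeks old, taken 14 days after glycerol was injected into the muscle. Glycerol kills muscle fibres, and fibres and fat form in their place. In 3 mice the glycerol was combined with a control treatment (the glycerol group), and in 3 mice with melatonin, which the pineal gland secretes at night (the glycerol+melatonin group). No uninjured muscle is part of the comparison, and neither dose nor schedule of the treatment is stated in the labels. Although the labels name the tibialis anterior as the tissue, their extraction text names a back muscle. Fibre markers (Acta1, Ckm, Myh4 and 5 others) were all present, at 114100 to 138900 CPM summed in glycerol and 79880 to 123900 CPM in glycerol+melatonin. CPM are counts per 1e6 of an effective library size, the library total times its scaling factor (TMM), so they do not sum to 1e6. Over all genes tested they summed to 963000 to 1151000 in glycerol mice and 876600 to 1034000 in glycerol+melatonin mice. Summed CPM are therefore no shares of a library.

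Chaperones bind unfolded protein and keep it from clumping, and many also refold it with energy from ATP. Hsp70 proteins work with J-domain partners, which bring the substrate and trigger ATP hydrolysis, and with Hsp110 proteins, which exchange the nucleotide. Heat, oxidants and injury release the factor HSF1, which binds inverted repeats of GAA upstream of the inducible members. In muscle, small heat shock proteins guard the contractile apparatus. Constitutive members such as Hspa8 and Hsp90ab1 are made at all times.

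Library totals ran from 39310361 to 48879045 counts, and the members took 0.599% to 0.771% of them. TMM scaling factors spanned 0.869 to 1.04 among glycerol mice and 0.967 to 1.14 among glycerol+melatonin mice. Scaling by library size alone moved the median of all genes up by 0.213 on the log2 scale. Glycerol+melatonin replicate 3 was the lowest library for 24 of the 67 members. Glycerol replicate 2 was the highest for 18 of them.

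Letters that match inverted repeats of GAA stand in the sequences just before the start of several inducible members. The promoters of Hspa1a, Hspa1b, Hspb1 and Hspe1 are shown because these inducible genes lay higher in all 3 glycerol+melatonin mice than in any glycerol mouse and hold such letters. The same held for Dnaja1, and Dnajb1 lay higher with no such letters. The printed genes were thus picked on both the values and the letters, and cannot show a link between them. Each line gives the 250 bases before the RefSeq start on the gene's own strand (build GRCm38.p6), with matches to the motif in capitals. Hspa1a is at chr17:34972157-34972406 (minus strand), Hspa1b at chr17:34959239-34959488 (minus strand), Hspb1 at chr5:135887669-135887918 (plus strand) and Hspe1 at chr1:55087898-55088147 (plus strand).
Hspa1a: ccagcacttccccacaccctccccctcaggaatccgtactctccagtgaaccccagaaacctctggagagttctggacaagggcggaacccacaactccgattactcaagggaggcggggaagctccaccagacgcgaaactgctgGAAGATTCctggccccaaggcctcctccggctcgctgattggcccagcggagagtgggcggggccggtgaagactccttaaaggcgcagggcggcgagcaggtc
Hspa1b: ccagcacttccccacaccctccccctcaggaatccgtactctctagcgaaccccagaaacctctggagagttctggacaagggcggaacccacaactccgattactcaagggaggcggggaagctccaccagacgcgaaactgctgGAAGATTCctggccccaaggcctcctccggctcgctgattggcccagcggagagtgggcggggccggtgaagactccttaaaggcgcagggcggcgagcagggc
Hspb1: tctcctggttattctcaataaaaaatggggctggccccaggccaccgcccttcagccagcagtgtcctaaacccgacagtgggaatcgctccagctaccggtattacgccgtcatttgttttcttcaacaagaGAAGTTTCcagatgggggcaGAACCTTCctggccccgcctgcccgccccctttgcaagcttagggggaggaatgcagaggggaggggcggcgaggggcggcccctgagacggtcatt
Hspe1: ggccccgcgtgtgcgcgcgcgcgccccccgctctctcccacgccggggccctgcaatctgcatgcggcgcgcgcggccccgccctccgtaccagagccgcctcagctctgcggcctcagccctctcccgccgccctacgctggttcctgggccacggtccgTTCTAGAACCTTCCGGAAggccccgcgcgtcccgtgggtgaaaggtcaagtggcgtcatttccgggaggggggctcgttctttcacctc

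The motif searched was a 2-unit repeat, GAANNTTC or TTCNNGAA, each of which reads the same on both strands. A 3-unit repeat, which adds NNGAA to the first or NNTTC to the second, was searched as well and always holds 2-unit matches. Hspa1a and Hspa1b differ at 3 of the 250 bases and share the match GAAGATTC, 104 to 97 bases before the start. Hspb1 holds GAAGTTTC and GAACCTTC, the first 117 to 110 bases before its start. Neither these 2 promoters of Hspa1a and Hspa1b nor that of Hspb1 holds a 3-unit match. In Hspe1, 2 overlapping 3-unit matches (TTCTAGAACCTTC and GAACCTTCCGGAA) run together from 89 to 72 bases before the start. Hspd1 lies head to head with Hspe1, and its own window, on the other strand, holds as many 2-unit matches (3) and 3-unit matches (2).

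Among members, 55 of 67 had a promoter sequence. The 2-unit repeat was found in 14 of the 55 (25.5%), and in 14.5% of all 27025 genes with a promoter. It was found in 8 of 11 inducible members with a sequence (72.7%), with the near-identical promoters of Hspa1a and Hspa1b counted separately, and in 1 of 10 constitutive members (10%). A 3-unit repeat was found in Hspe1, Hspd1 and Dnajb6, the last counted as constitutive, against 0.514% of all genes. Such a match is a run of letters and shows no binding. Members with a 2-unit match had a median log2 difference of 0.10 between the groups (8 of 14 above 0) and those without one of -0.06 (18 of 41 above 0). Below 0 with a match were, among others, Hspb6 (-1.42), Dnajc27 (-0.96) and the inducible Dnajb4 (-0.68).

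**Figure D1:**
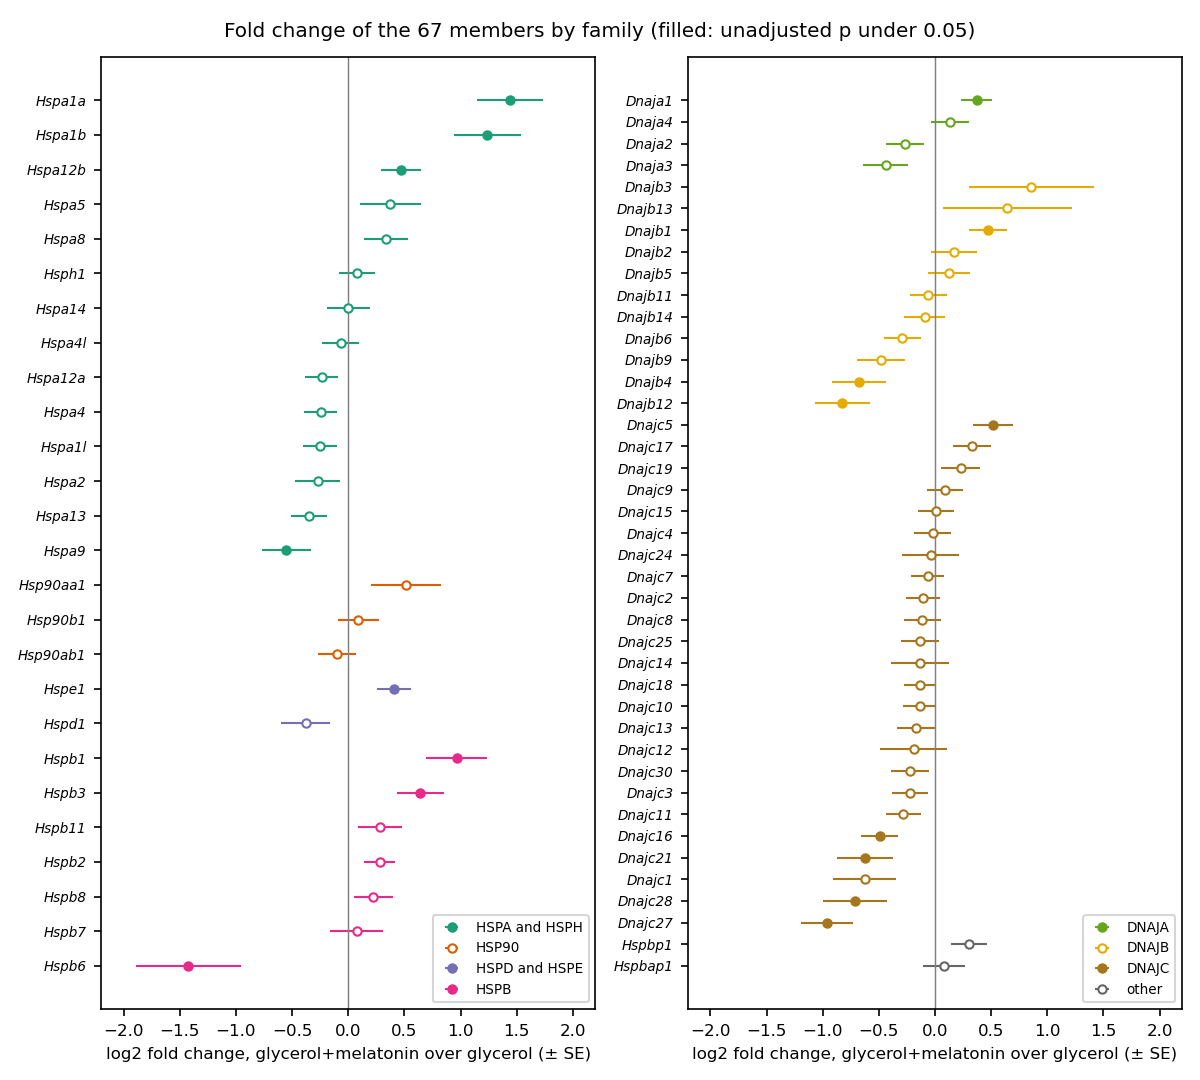
Log2 fold change of each of the 67 members (glycerol+melatonin over glycerol, x axis) with its SE, by family. Filled points have an unadjusted p under 0.05, and none passed after adjustment. Most HSPB members lie to the right of 0 and most DNAJC members to the left, and Hspa1a (1.44) and Hspb6 (-1.42) mark the ends. The 2 families also differ in median transcript length (1502 bases for HSPB, 3890.5 for DNAJC).

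No member passed the test over all genes (the quasi-likelihood test of edgeR, Benjamini-Hochberg adjusted p under 0.05). Of all 16259 genes tested, 12 passed, or 0.0738%. A fit with limma-voom called 0 members too. At an unadjusted edgeR p under 0.05, 9 members were higher in glycerol+melatonin (13.4%, against 10.1% of all genes) and 8 were lower (11.9%, against 9.39%), shares near the background. Values of the 2 groups did not overlap for 13 members that were higher (19.4%, against 13.6% of all genes) and 17 that were lower (25.4%, against 12.5%). Log2 fold changes were above 0 for 30 members and 51.7% of all genes. The median log2 fold change was -0.065 over the members and 0.016 over all genes tested. DESeq2, another count test, called 6 members (5.01% of all genes; 3 higher, against 2.21% of all genes, and 3 lower, against 2.8%): Hspa1a, Hspa1b, Hspb1, Hspb6, Dnajc27 and Dnajb12. Counts were also simulated in 1 draw for this comparison, with dispersions as edgeR estimated them here. Of 16259 genes, 67 were changed 1.5-fold, 67 2-fold and 66 4-fold. In that draw 34 of the 122 calls by DESeq2 and 9 of the 75 by edgeR were false. Of the 2-fold changes, edgeR recovered 14.9% and DESeq2 37.3%. These shares depend on how many genes are changed, so they do not give the false share among the real calls. In whole muscle, fewer cells of a type and less RNA per cell cannot be told apart.

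Members listed as inducible mostly lay higher in glycerol+melatonin and those listed as constitutive mostly lower, and the lists were described without a test between them. Both lists were drawn up by hand from textbook knowledge, with earlier results of these data known. Some members, such as Dnajb4, Hspa4l and Hspb8, could be placed otherwise, and the remaining members are on neither list. Of 12 inducible members, 9 were above 0, with a median log2 fold change of 0.39, and 6 (50%) were higher at an unadjusted p under 0.05, against 10.1% of all genes. Of 12 constitutive members, 3 were above 0, with a median of -0.11. None of these was higher and 1 (8.33%), Dnajb12, was lower at that p, against 9.39% of all genes. Groups did not overlap for 6 inducible members (50%) that were higher, against 13.6% of all genes. They did not overlap for 1 inducible member (8.33%, Dnajb4) and 5 constitutive members (41.7%) that were lower, against 12.5% of all genes. Hspa1a and Hspa1b, near copies of each other, count separately in both inducible shares of 50%. The mean level of the inducible list, as log2 CPM around each gene's mean, was -0.386, -0.032 and -0.145 in the glycerol mice and 0.064, 0.389 and 0.11 in the glycerol+melatonin mice. Constitutive genes stood at 0.137, 0.106 and -0.012, and at 0.02, -0.087 and -0.164. The inducible level, into which Hspa1a and Hspa1b both enter, did not overlap between groups. The gap from glycerol replicate 2 to glycerol+melatonin replicate 1 was smaller than the SD within groups (0.179). The constitutive level did, since glycerol replicate 3 lay below glycerol+melatonin replicate 1. With library size alone the medians were 0.595 and 0.0978, so the sign of the constitutive median depended on the scaling.

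**Figure D2:**
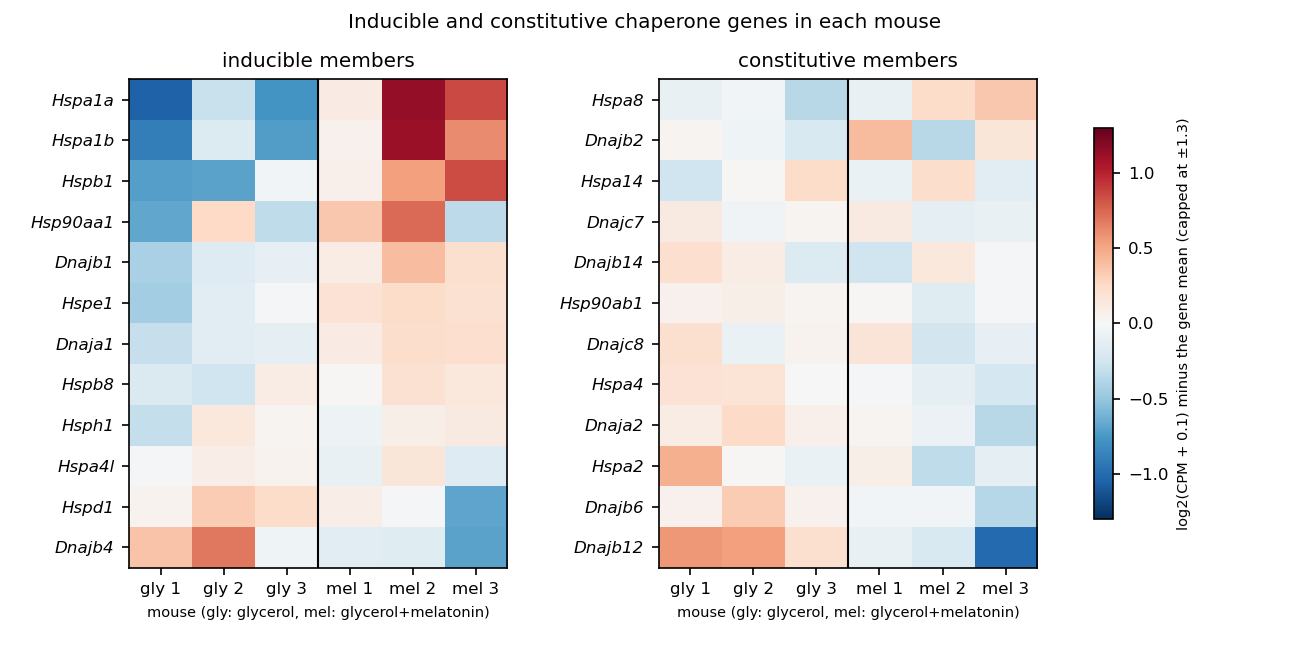
Level of the 12 inducible and 12 constitutive members in each mouse, as the log2 of CPM (with a small pseudocount) minus the mean of the gene (red above, blue below, columns are mice). Hspa1a, Hspa1b, Dnajb1 and Dnaja1 are blue in the glycerol mice and red in the glycerol+melatonin mice, while inducible Dnajb4 and constitutive Dnajb12 are darkest blue in glycerol+melatonin replicate 3.

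The stress-inducible Hsp70 genes Hspa1a and Hspa1b had the largest positive differences among the members. Hspa1a (ENSMUSG00000091971, chromosome 17, 34969190 to 34972156) was at 10.2, 17.4 and 12.4 CPM in glycerol and 22.9, 47.0 and 38.5 CPM in glycerol+melatonin. Hspa1b (ENSMUSG00000090877, chromosome 17, 34956436 to 34959238) was at 9.04, 14.97 and 10.2 CPM and at 17.7, 37.1 and 26.0 CPM. In both genes replicate 2 was the highest mouse of each group, and the groups did not overlap. Fold changes were 2.71 for Hspa1a (log2 1.44 ± 0.30, SE, edgeR adjusted p = 0.122) and 2.36 for Hspa1b (1.24 ± 0.30, edgeR adjusted p = 0.137), with DESeq2 adjusted p of 4.8e-04 and 0.00547. Leaving out 1 library at a time kept Hspa1a between 1.20 and 1.68, with edgeR adjusted p from 0.06 to 0.352. The 2 genes are near copies: 47.1% of the 100-base words of the Hspa1a transcript occur in Hspa1b, and no source used here says how shared reads were counted. Summed, they were at 1.35 ± 0.29 (edgeR adjusted p = 0.132).

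Their constitutive counterpart Hspa8 was far more abundant. It was at 863, 902 and 721 CPM in glycerol and 867, 1093 and 1179 CPM in glycerol+melatonin, with overlapping groups (0.34 ± 0.20, edgeR adjusted p = 0.373). Of the 100-base words of Hspa8, 28.9% occur in the non-coding gene Gm26825. That gene was at 48.8, 45.0 and 122 CPM in glycerol and 105, 115 and 101 CPM in glycerol+melatonin. Summed with it, a choice made after the data were seen, Hspa8 was at 0.36 ± 0.19 (edgeR adjusted p = 0.325). The third gene of the locus, Hspa1l, a testis form beside Hspa1a, was at 16.5 to 20.5 CPM and 15.3 to 15.5 CPM (-0.25 ± 0.15, edgeR adjusted p = 0.389). Of its 100-base words, 70.8% occur in Gm10501, a gene annotated on the opposite strand of the same place that was under 1 CPM in every mouse.

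Within each mouse, the ratio of Hspa1a plus Hspa1b to Hspa8 was 0.0223, 0.0359 and 0.0313 in the glycerol mice and 0.0468, 0.0770 and 0.0548 in the glycerol+melatonin mice. Every glycerol+melatonin mouse lay above every glycerol mouse, with a mean difference of 0.99 on the log2 scale. The exact two-sided permutation p was 0.1, the smallest that 3 against 3 mice allow (0.3 adjusted over the 3 ratios compared). The ratio of Hsp90aa1, the inducible cytosolic Hsp90, to the constitutive Hsp90ab1 was 0.0209, 0.0395 and 0.0271 in the glycerol mice and 0.0440, 0.0647 and 0.0278 in the glycerol+melatonin mice. There glycerol+melatonin replicate 3 lay among the glycerol mice (difference 0.61, exact permutation p = 0.2, adjusted 0.3). Hsph1, the inducible Hsp110, over the constitutive Hspa4 was at 0.260, 0.357 and 0.375 and at 0.354, 0.420 and 0.465, overlapping groups with a difference of 0.33 (exact permutation p = 0.3, adjusted 0.3).

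**Figure D3:**
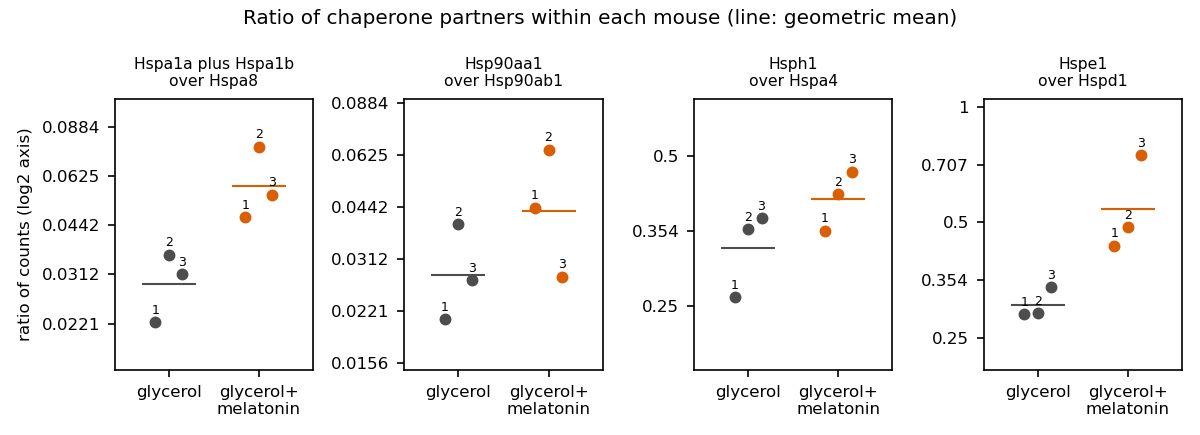
Ratio of counts of a chaperone to its partner in each mouse (points numbered by replicate, log2 axis, line at the geometric mean). The Hspa1a plus Hspa1b ratio and the Hspe1 ratio separate the groups, while those of Hsp90aa1 and Hsph1 overlap.

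The 2 cytosolic Hsp90 genes differed in direction, with overlapping groups for the inducible one. Hsp90ab1, which ranked second per kilobase of transcript in the mean of each group, was at 1048, 1063 and 1034 CPM in glycerol and 1024, 905 and 1000.3 CPM in glycerol+melatonin. The groups did not overlap, yet the difference was smaller than its SE (-0.10 ± 0.17, edgeR adjusted p = 0.767). It was -0.05 without glycerol+melatonin replicate 2 and 0.11 by library size alone. Hsp90aa1 was at 21.9, 42.0 and 28.1 CPM and at 45.0, 58.6 and 27.8 CPM (0.51 ± 0.31, edgeR adjusted p = 0.386). That value was 0.25 without glycerol+melatonin replicate 2, 0.32 without glycerol replicate 1 and 0.81 without glycerol replicate 2. A pseudogene, Gm12346, shares 39.6% of the 100-base words of Hsp90aa1, which was at 0.50 ± 0.30 when summed with it after the data were seen. Hsp90b1, the form of the endoplasmic reticulum (ER), was at 107.7, 131.5 and 156 CPM and at 124, 141 and 155 CPM, overlapping groups (0.09 ± 0.18).

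Other inducible cytosolic members lay on both sides of 0. Dnajb1, the J-domain partner induced with Hsp70, was at 10.8, 12.9 and 13.5 CPM in glycerol and 15.6, 19.3 and 16.8 CPM in glycerol+melatonin (0.47 ± 0.17, edgeR adjusted p = 0.197). Dnaja1, another J-domain partner of cytosolic Hsp70, was at 41.7, 46.5 and 47.4 CPM and at 55.3, 60.2 and 59.9 CPM (0.37 ± 0.14, edgeR adjusted p = 0.202). In both genes the groups did not overlap. Hsph1 (30.8, 42.1 and 39.2 CPM, then 36.5, 40.3 and 41.4 CPM) and Hspa4l (9.64, 10.4 and 10.1 CPM, then 9.16, 10.9 and 8.68 CPM) overlapped, at 0.07 ± 0.16 and -0.07 ± 0.17. Dnajb4, listed as inducible, went against the list at 21.8, 27.2 and 16.2 CPM in glycerol and 15.3, 15.1 and 10.4 CPM in glycerol+melatonin (-0.68 ± 0.24, edgeR adjusted p = 0.194).

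Immediate-early genes, which cells switch on within minutes of a stimulus, also lay higher in glycerol+melatonin. All 12 on the list were above 0 (median 0.81), and for 8 of them (66.7%) the groups did not overlap, against 13.6% of all genes. Fos, which led by p, was at 9.49, 13.8 and 13.1 CPM in glycerol and 28.6, 39.4 and 26.6 CPM in glycerol+melatonin (1.38 ± 0.22, edgeR adjusted p = 0.0788), followed by Jund (0.81 ± 0.15), Ier5 (1.13 ± 0.23) and Ier2 (0.89 ± 0.18). Their summed level was 510.7 to 564 CPM in glycerol and 838 to 949.9 CPM in glycerol+melatonin. By edgeR 0 of the 12 passed, against 0.0738% of all genes. DESeq2 called 8 as higher (66.7%, against 2.21% of all genes). At an unadjusted edgeR p under 0.05, 8 were higher (66.7%, against 10.1% of all genes). Neutrophil markers lay higher as well, 4 of 4 tested, at 4.21 to 4.92 CPM summed in glycerol and 5.34, 8.58 and 21.1 CPM in glycerol+melatonin. The groups did not overlap for 2 of the 4 (50%, against 13.6% of all genes). Lcn2 and Mmp8 overlapped, and both were highest in glycerol+melatonin replicate 3 (4.09 and 1.49 CPM). Of that list's 6 markers S100a8 and Retnlg were not tested, and S100a9 had no count in glycerol replicate 2. Markers of newly formed fibres, 7 of 7 above 0, were at 346, 205 and 267 CPM summed in glycerol and 302, 475 and 447 CPM in glycerol+melatonin. Markers of fibro-adipogenic progenitors, 5 of 7 below 0, were at 1360, 2082 and 1906 CPM and at 1223, 1252 and 1026 CPM. Macrophage markers overlapped (538 to 772 and 520 to 746 CPM), as did those of fat cells (40.2 to 299.8 and 42.2 to 144 CPM), muscle stem cells (36.9 to 61.4 and 42.1 to 69.5 CPM), lymphocytes (6.47 to 13.2 and 7.38 to 12.7 CPM), Schwann cells (59.2 to 70.2 and 40.8 to 65.7 CPM) and red cells (154 to 376 and 101 to 336 CPM). The part of these lists in the chaperone values was not tested.

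Small heat shock proteins form oligomers that hold unfolded proteins. Of the 7 genes named HSPB, 6 were above 0 (median 0.28), among them Hspb11, which is a transport subunit. Of the 6 without Hspb11, 5 were above 0 (median 0.25). The median transcript length of the 7 was 1502 bases, and all genes of up to 1500 bases had a median log2 fold change of 0.31. Hspb1 (ENSMUSG00000004951, chromosome 5, 135887919 to 135889563), which binds actin and titin under strain, was the most abundant member per kilobase of transcript in the glycerol+melatonin mean and the third in the glycerol mean. It was at 223, 226 and 359 CPM in glycerol and 385, 532 and 659 CPM in glycerol+melatonin. The groups did not overlap, though glycerol replicate 3 lay close to glycerol+melatonin replicate 1. This was a 1.95-fold difference (0.96 ± 0.27, edgeR adjusted p = 0.157, DESeq2 adjusted p = 0.0171). A pseudogene, Hsp25-ps1, shares 42.7% of the transcript's 100-base words and lay in the same direction (1.21 ± 0.24, edgeR adjusted p = 0.122). Summed with it, a choice made after the data were seen, Hspb1 was at 0.98 ± 0.27 (edgeR adjusted p = 0.152).

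Hspb3, a muscle form, was at 15.7, 18.1 and 26.6 CPM in glycerol and 28.8, 33.8 and 31.8 CPM in glycerol+melatonin (0.64 ± 0.21, edgeR adjusted p = 0.185). A correction for transcript length took it to 0.37. Hspb2, whose protein pairs with that of Hspb3, was at 50.5, 56.3 and 54.2 CPM and at 69.5, 65.8 and 60.3 CPM (0.28 ± 0.14, edgeR adjusted p = 0.300). Both genes separated the groups, and after the correction for length Hspb2 was at -0.02. Hspb2 shares 252 exon bases with Cryab, another small heat shock protein gene that lies head to head with it and is no member by name. Cryab was at 243 to 311 CPM and at 323 to 468 CPM (0.59 ± 0.20, edgeR adjusted p = 0.188). Hspb8, the partner of BAG3 in chaperone-assisted autophagy, was at 443, 422 and 539 CPM and at 508, 578 and 554 CPM, overlapping groups (0.22 ± 0.17). Hspb7 (0.08 ± 0.24) overlapped too, and Hspb11, a low-level intraflagellar transport subunit, was at 2.54 to 2.72 and 3.08 to 3.26 CPM.

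Hspb6 (Hsp20; ENSMUSG00000036854, chromosome 7, 30552178 to 30555443), a small heat shock protein of muscle that binds actin-linked partners, was the exception. It was at 714, 1788 and 408 CPM in glycerol and 402, 362 and 320.4 CPM in glycerol+melatonin. Glycerol replicate 2 stood far above the rest, and glycerol replicate 3 was hardly above glycerol+melatonin replicate 1. The log2 fold change was -1.42 ± 0.47 (edgeR adjusted p = 0.185, DESeq2 adjusted p = 0.0176), and -0.63 without glycerol replicate 2. The summed level of 7 slow fibre markers was lowest in that mouse, at 166 CPM against 304 to 372 CPM in the other 5 mice, though Myh7 alone was lowest in glycerol+melatonin replicate 3. Whether fibre type had a part in the value was not tested.

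**Figure D4:**
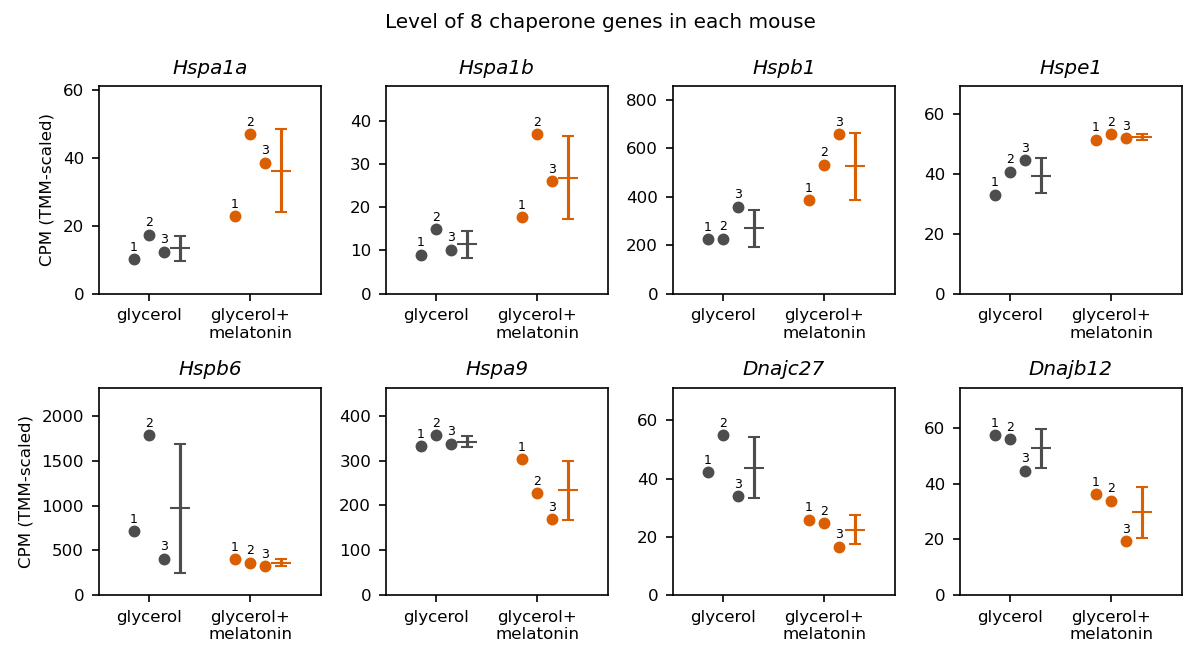
CPM (TMM-scaled, y axis from 0) of 8 members in each mouse, numbered by replicate, with mean and SD per group. The upper row shows members that lay higher in glycerol+melatonin, and the lower row members that lay lower, with glycerol replicate 2 far above the others for Hspb6 (1788 CPM).

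The paired subunits of the mitochondrial chaperonin went opposite ways. Hspe1 (Hsp10, the lid of the folding chamber; ENSMUSG00000073676, chromosome 1, 55088132 to 55091307) was at 33.1, 40.8 and 44.5 CPM in glycerol and 51.4, 53.4 and 52.0 CPM in glycerol+melatonin. Hspd1 (Hsp60, the chamber; ENSMUSG00000025980, chromosome 1, 55077835 to 55088243) was at 115, 140.3 and 131 CPM and at 118, 109.7 and 69.4 CPM. Hspe1 separated the groups (0.41 ± 0.15, edgeR adjusted p = 0.211), while Hspd1 overlapped (-0.38 ± 0.22, edgeR adjusted p = 0.363). The ratio of Hspe1 to Hspd1, chosen after the values were seen and so given with no test, was 0.289, 0.290 and 0.339 in the glycerol mice and 0.435, 0.486 and 0.749 in the glycerol+melatonin mice. These genes start from the shared region printed above and overlap by 112 exon bases on opposite strands. A correction for transcript length took Hspe1 to 0.14 and Hspd1 to -0.42, and Hspd1 was at -0.17 without glycerol+melatonin replicate 3.

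On the list of 10 mitochondrial chaperones, which includes this pair, 7 were below 0, with a median of -0.25. Hspa9 (mortalin), the mitochondrial Hsp70 that drives protein import, was at 332, 356 and 337 CPM in glycerol and 303, 227 and 170 CPM in glycerol+melatonin. The groups did not overlap, and glycerol+melatonin replicate 1 was nearest to glycerol. Its log2 fold change was -0.55 ± 0.22 (edgeR adjusted p = 0.228), or -0.36 without glycerol+melatonin replicate 3. Dnaja3, the J-domain partner of Hspa9, was at 111, 117 and 104 CPM and at 100.3, 84.9 and 60.3 CPM, with replicate 3 again the lowest of the glycerol+melatonin mice (-0.44 ± 0.20, edgeR adjusted p = 0.271). Dnajc28 was at 18.3, 19.6 and 15.2 CPM and at 14.4, 11.7 and 6.38 CPM (-0.71 ± 0.28, edgeR adjusted p = 0.227). Without glycerol+melatonin replicate 3, Dnaja3 was at -0.25 and Dnajc28 at -0.44. The import motor subunits Dnajc19 (0.23 ± 0.18) and Dnajc15 (0.01 ± 0.16) lay at or above 0. Fibre markers were also lowest in glycerol+melatonin replicate 3, at 79880 CPM summed, and their part was not tested.

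Of 10 ER chaperones, 8 were below 0 (median -0.18), and Hspa5 and Hsp90b1 were above it. Hspa5 (BiP), the ER Hsp70, was at 140, 134 and 105 CPM in glycerol and 188, 202 and 98.8 CPM in glycerol+melatonin. Glycerol+melatonin replicate 3 was the lowest of the 6 mice and the other 2 of its group the highest (0.37 ± 0.27, edgeR adjusted p = 0.462). The value was 0.19 without glycerol+melatonin replicate 2 and 0.64 without its replicate 3. Dnajb9, a BiP partner that stress of the ER induces, was at 46.0, 45.3 and 35.5 CPM and at 35.5, 33.8 and 21.7 CPM (-0.48 ± 0.21, edgeR adjusted p = 0.263, and -0.28 without glycerol+melatonin replicate 3). Dnajc16 (-0.49 ± 0.17, edgeR adjusted p = 0.187) was at 19.4, 20.4 and 15.9 CPM in glycerol and 14.5, 13.0 and 12.2 CPM in glycerol+melatonin. Dnajb11 and Dnajc10, further ER partners, were at -0.06 ± 0.16 and -0.14 ± 0.15.

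J-domain genes held most of the lower values, and they are also most of the 67 members (4 DNAJA, 11 DNAJB and 24 DNAJC). Of 24 DNAJC members, 19 were below 0 (median -0.14), with 4 lower (16.7%, against 9.39% of all genes) and 1 higher (4.17%, against 10.1%) at an unadjusted p under 0.05. The median DNAJC transcript length was 3890.5 bases, and all genes of 3000 to 6000 bases had a median log2 fold change of -0.07. Dnajc27 (ENSMUSG00000020657, chromosome 12, 4082583 to 4110606), which encodes a small GTPase fused to a J domain, was at 42.2, 54.8 and 34.0 CPM in glycerol and 25.9, 24.7 and 16.6 CPM in glycerol+melatonin. The groups did not overlap, and this 1.95-fold lower level (-0.96 ± 0.23, edgeR adjusted p = 0.138, DESeq2 adjusted p = 0.0107) was the largest negative difference in the family. Dnajc21, a ribosome biogenesis factor, was at 35.9, 52.3 and 35.6 CPM and at 36.6, 21.2 and 22.7 CPM, overlapping groups (-0.62 ± 0.25, edgeR adjusted p = 0.232, and -0.41 without glycerol replicate 2). Dnajc5, the cysteine string protein of secretory vesicles, went the other way, at 28.9, 25.0 and 28.2 CPM and at 35.4, 48.2 and 34.0 CPM (0.52 ± 0.18, edgeR adjusted p = 0.188, and 0.34 without glycerol+melatonin replicate 2). Dnajc7, a partner of both Hsp70 and Hsp90, was at 101.4, 90.7 and 95.6 CPM and at 101.5, 86.3 and 87.2 CPM (-0.06 ± 0.15). The spliceosome-linked Dnajc8 was at 65.2, 53.2 and 58.3 CPM and at 63.4, 47.6 and 52.3 CPM (-0.11 ± 0.16, from -0.24 to -0.02 when 1 library was left out). Both overlapped between groups.

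Among DNAJB members, Dnajb12, an ER membrane protein that works with cytosolic Hsp70, was at 57.5, 56.2 and 44.8 CPM in glycerol and 36.2, 33.9 and 19.3 CPM in glycerol+melatonin. The groups did not overlap (-0.82 ± 0.24, edgeR adjusted p = 0.167, DESeq2 adjusted p = 0.0430). Its paralog Dnajb14 was at 16.9, 15.5 and 12.7 CPM and at 12.1, 15.9 and 14.3 CPM, overlapping groups (-0.09 ± 0.18). Dnajb6, whose mutations cause a limb girdle muscular dystrophy, was at 82.4, 100.1 and 82.8 CPM and at 77.7, 77.6 and 61.4 CPM (-0.29 ± 0.16, edgeR adjusted p = 0.356). Dnaja2, the most abundant J-domain gene per kilobase, was at 198, 219.8 and 193 CPM and at 189, 175 and 143 CPM (-0.27 ± 0.17, edgeR adjusted p = 0.395). For Dnajb6 and Dnaja2 the groups did not overlap, though the gaps were small, and without glycerol+melatonin replicate 3 they were at -0.18 and -0.16. Dnajb2, a neuronal form, was at 30.7, 28.7 and 26.1 CPM and at 39.7, 23.2 and 33.3 CPM (0.17 ± 0.21). Dnajb5 was at 187, 161 and 122 CPM and at 180.2, 167 and 165 CPM (0.13 ± 0.19). Both overlapped, and the testis-linked Dnajb3 and Dnajb13 were below 1 CPM in every mouse.

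Of the remaining HSPA genes, Hspa12b, a distant Hsp70 relative of endothelium, was at 38.2, 40.3 and 49.1 CPM in glycerol and 50.5, 55.9 and 70.2 CPM in glycerol+melatonin (0.47 ± 0.18, edgeR adjusted p = 0.211). Its groups did not overlap. Endothelial markers (5 of 5 tested) were at 742 to 909 CPM summed in glycerol and 632 to 1041 CPM in glycerol+melatonin, and 4 of the 5 were below 0. Hspa4 was at 118, 118 and 105 CPM and at 103, 96.0 and 88.9 CPM (-0.25 ± 0.15, edgeR adjusted p = 0.376). Hspa2, best known from testis, was at 23.6, 17.2 and 16.1 CPM and at 18.0, 13.5 and 15.6 CPM (-0.27 ± 0.20, and -0.08 without glycerol replicate 1). The ribosome-linked Hspa14 was at 12.2, 14.8 and 17.4 CPM and at 13.9, 17.2 and 13.4 CPM (0.00 ± 0.19). Both overlapped between groups. The nucleotide exchange factor Hspbp1 was at 0.31 ± 0.16 (0.14 after a correction for length) and Hspbap1 at 0.08 ± 0.19.

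Levels within the set spanned a wide range. Per kilobase of the longest transcript, the glycerol means were led by Hspb6 at 490 CPM, Hsp90ab1 at 416, Hspb1 at 289 and Hspa8 at 262. The place of Hspb6 rested on glycerol replicate 2 (903 CPM per kilobase, against 360 and 206 in the other 2 glycerol mice). Without that mouse its glycerol mean was 283, below Hsp90ab1 (413) and Hspb1 (313). The glycerol+melatonin means were led by Hspb1 at 565 CPM, Hsp90ab1 at 387, Hspa8 at 331 and Hspb8 at 301, with Hspb6 at 183. Averaged over all 6 mice, Hspa1a (8.34 CPM per kilobase) and Hspa1b (6.84) ranked 36 and 46 of the 67. The lowest were Dnajb13 and Dnajb3.

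Genes that work beside the members were read from lists, none of whose members passed. Of 33 co-chaperones and regulators, 14 were above 0 (median -0.05), with 3 higher and 0 lower at an unadjusted edgeR p under 0.05 (19.5% of all genes in either direction). Stub1, the ubiquitin ligase that binds Hsp70 and Hsp90, was at 91.4, 87.3 and 90.3 CPM in glycerol and 134, 115 and 117 CPM in glycerol+melatonin (0.44 ± 0.14, edgeR adjusted p = 0.182). Unc45a, a myosin and Hsp90 co-chaperone, was at 0.39 ± 0.16 and the Hsp90 co-chaperone Ptges3 at 0.35 ± 0.18. Transcript levels of the regulator Hsf1 (0.03 ± 0.17) and of Bag3 (-0.42 ± 0.22), both chosen after their values were seen, overlapped between groups. Of 14 genes of the chaperonin TRiC, which folds actin and tubulin, and of its partner prefoldin, 10 were above 0 (median 0.12). The leading ones were the prefoldin subunits Pfdn5 (0.47 ± 0.16), Pfdn6 (0.55 ± 0.24), Pfdn1 (0.24 ± 0.20) and Pfdn2 (0.16 ± 0.15).

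Transcript length moved with the fold change, in the members and in all genes. Across the 67 members Spearman's rho between log2 fold change and length was -0.28, and across 16230 genes it was -0.32. These are correlations across genes that share the same 6 libraries, not independent replicates. The 8 members of up to 1500 bases had a median of 0.37 (all genes of that length 0.31), and the 29 of 3000 to 6000 bases one of -0.14 (all genes -0.07). Hspa1a and Hspa1b, at 2967 and 2803 bases, were at 1.47 and 1.25 after a correction for length. Hspb1, at 930 bases, was at 0.71. The inducible median was then 0.35 and the constitutive one -0.13.

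**Figure D5:**
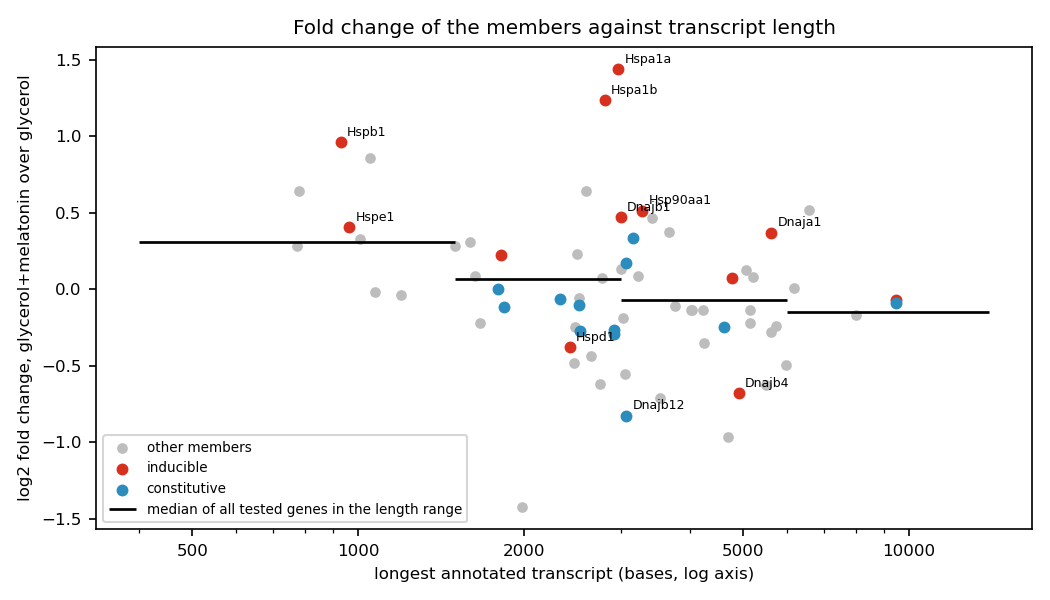
Log2 fold change of the members (y axis) against the length of their longest transcript (log x axis), with inducible members in red, constitutive ones in blue and black lines at the median of all tested genes in each length range (0.31 up to 1500 bases). Hspa1a and Hspa1b lie far above the line for their length, and Hspe1 lies near it.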

How the data were processed

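RNA-seq of 6 muscle samples was analysed from 1 table of whole-number read counts per Ensembl gene, deposited by the authors with no normalization. The build was mm10 and the aligner named is HISAT2 2.0, with StringTie 1.3.3b and DESeq2 1.12.4 also listed, per the submitters' processing notes. Counting tool, annotation, strand setting and treatment of shared reads are not stated there. The smallest gene total is 28 counts, so the table holds no rarer gene. At this depth differences among mice, not counting error, limit the precision for most members.

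Symbols, positions and lengths came from GENCODE M21 (GRCm38, the assembly of mm10), and promoters from RefSeq. In 48 of 55 members bases after the start lay in a transcript of the gene, which checks the strand. edgeR 4.0.16 (R 4.3.3) was fitted to all 16259 genes left by filterByExpr, with TMM factors and no covariate, and tested on simulated data. SE is the log2 fold change divided by the square root of F. Named were inducible and constitutive list members, leading members of each family by p or level, members with an unadjusted p under 0.05, and 4 leading genes of each list of non-members. Hspa1l, Hspa5, Hspb2, Hspb7, Hspb11, Dnajb3, Dnajb9, Dnajb11, Dnajb13, Dnajc10, Dnajc15 and Dnajc19 were named after their values were seen. Members and lists were chosen with earlier results of these data known, and no list was tested as a set. Other settings were other scalings, filters, DESeq2 1.42.0, limma 3.58.1 (voom), a length correction (spline with 4 degrees of freedom), a replicate block, and leaving out each library. Summing a member with a pseudogene or non-coding gene that shares its sequence was added after the data were seen. Each group's 3 samples are described by the submitters as biological replicates.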

Additional observations from a re-analysis of the deposited data

How the results depend on the processing

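DESeq2 called 752 genes and 6 members, where edgeR called 12 and 0. In all, 7 genes passed with the length correction. Leaving out 1 library gave 6 to 27 genes (6 without glycerol replicate 1, 27 without glycerol replicate 3) and 0 members. Without glycerol+melatonin replicate 1 or 3 it was 25 or 24 genes. At an unadjusted p under 0.05, members that were higher numbered 4 to 12 and those that were lower 2 to 11 when 1 library was left out, and library size alone gave 15 and 3. The fewest higher (4) came without glycerol replicate 1, and 5 came without glycerol replicate 2 or glycerol+melatonin replicate 2. The fewest lower (2) came without glycerol replicate 2, and 4 without glycerol+melatonin replicate 3.

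By library size alone the median of the members was 0.146, of the inducible list 0.595 and of the constitutive list 0.0978. The median of the members ran from -0.137 without glycerol+melatonin replicate 1 to 2.44e-05 without its replicate 3. The inducible median ran from 0.299 to 0.434 and the constitutive one from -0.19 to -0.093. Ratios to the partner stayed above 0 without each library, from 0.79 to 1.15 for Hspa1a plus Hspa1b, 0.31 to 0.92 for Hsp90aa1 and 0.17 to 0.44 for Hsph1.

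The members named in the text that turned sign are these. By library size alone Hspa4l was at 0.15, Hsp90ab1 at 0.11, Dnajb14 at 0.14, Dnajc7 at 0.14, Dnajc8 at 0.088, Dnajb11 at 0.15 and Dnajc10 at 0.068. With the length correction Hspa4l was at 0.12, Dnajb14 at 0.10, Hspb2 at -0.017 and Hspa14 at -0.13. Dnajc15 was at -0.00115 with RLE factors and -0.00117 with DESeq2, and ran from -0.11 to 0.094 without single libraries. Hspa14 was at -0.011 with both, and it ran from -0.12 to 0.14 without single libraries. Without 1 library, Hsph1 ran from -0.047 to 0.17, Hspa4l from -0.17 to 0.0038, Dnajb2 from -0.011 to 0.36, Dnajb14 from -0.19 to 0.0076, Dnajb5 from -0.020 to 0.28, Hspb7 from -0.077 to 0.35, Dnajb11 from -0.17 to 0.016 and Hsp90b1 from -0.037 to 0.23.

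Samples of the same number share no stated litter or day, and their deviations from the group mean correlated at -0.01, -0.011 and -0.049. With a replicate block 0 genes passed and 0 members, and 9 members were higher and 10 lower at an unadjusted p under 0.05. The cause of these shifts was not tested.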
